A study of Mus musculus with 40 samples.

Results

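The hypothalamus of 5 mice was compared before and after a thiol-specific pull-down of its small RNA. The comparison set 5 libraries of RNA pulled down on streptavidin (IP) against 5 libraries of total small RNA (input), so it used 10 of the 40 libraries of the study, chosen by their labels, and all 1894 entries of the miRNA table. The other 30 libraries hold the same 2 kinds of RNA from brown fat, liver and gastrocnemius muscle. All mice were males of 8 to 12 weeks from a cross of Ucp1-cre mice with mice that carry the CAG-GFP,-Uprt transgene, and all received 4-thiouracil (4TU) at 50 mg/kg into the peritoneum 4 times, 48 h apart. Input and IP libraries with the same number came from the same mouse (mice 2, 4, 6, 8 and 9 for numbers 1 to 5). No library used here came from a mouse without 4TU or without the Cre driver, so the RNA that binds without a label was not measured. All inputs were sequenced in pool 1 and all IPs in pool 2, and the pool cannot be told apart from the pull-down.

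Uracil phosphoribosyltransferase (UPRT) couples 4TU to ribose phosphate, and RNA made afterwards carries 4-thiouridine, whose thiol group can be biotinylated and captured. The Ucp1 promoter drives Cre in brown adipocytes, so label recovered in another organ was the question of the study. miRNAs are short RNAs that guide Argonaute to messages through their seed, bases 2 to 8. The hypothalamus, which controls feeding, body temperature and the pituitary, is known for high levels of miR-7 beside the general neuronal miRNAs miR-9, miR-124 and miR-128.

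The sequences below carry the results. Capitals mark the seed. Sequences are from RefSeq and positions and genes from GRCm38.p6 with GENCODE vM21, for one locus per sequence. The first 9 are the let-7 family, which share a seed and rose together in the IP.
let-7a-5p: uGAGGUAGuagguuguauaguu (chr13:48538239-48538260, minus strand, exon of the lincRNA 6720427I07Rik)
let-7b-5p: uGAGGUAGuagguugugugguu (chr15:85707325-85707346, plus strand, exon of Lncppara)
let-7c-5p: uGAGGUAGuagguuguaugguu (chr15:85706616-85706637, plus strand, exon of Lncppara)
let-7d-5p: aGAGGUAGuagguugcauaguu (chr13:48536078-48536099, minus strand, exon of 6720427I07Rik)
let-7e-5p: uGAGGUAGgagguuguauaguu (chr17:17830366-17830387, plus strand, intron of Spaca6)
let-7f-5p: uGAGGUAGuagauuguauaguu (chr13:48537889-48537910, minus strand, exon of 6720427I07Rik)
let-7g-5p: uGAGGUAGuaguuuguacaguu (chr9:106178846-106178867, plus strand, intron of Wdr82)
let-7i-5p: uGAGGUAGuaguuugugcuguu (chr10:122985698-122985719, minus strand, exon of the pseudogene D630033A02Rik)
miR-98-5p: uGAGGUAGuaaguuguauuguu (chrX:151913229-151913250, plus strand, intron of Huwe1)

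The next 5 were among the largest increases outside let-7. The last of them, miR-5126, holds no U and entered the test only through its IP counts.
miR-423-5p: uGAGGGGCagagagcgagacuuu (chr11:77078122-77078144, minus strand, intron of Nsrp1)
miR-92b-5p: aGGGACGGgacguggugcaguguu (chr3:89227165-89227188, minus strand)
miR-342-5p: aGGGGUGCuaucugugauugag (chr12:108658638-108658659, plus strand, intron of Evl)
miR-298-5p: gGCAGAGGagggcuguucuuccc (chr2:174267553-174267575, minus strand)
miR-5126: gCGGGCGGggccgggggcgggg (chr1:84695890-84695911, plus strand)

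Another 6 were among the abundant miRNAs that fell most.
miR-101a-3p: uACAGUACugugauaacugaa (chr4:101346957-101346977, minus strand, exon of the lincRNA E130102H24Rik)
miR-136-3p: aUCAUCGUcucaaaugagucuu (chr12:109595366-109595387, plus strand)
miR-381-3p: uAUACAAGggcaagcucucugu (chr12:109726870-109726891, plus strand)
miR-340-5p: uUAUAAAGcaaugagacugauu (chr11:50069720-50069741, plus strand, intron of Rnf130)
miR-137-3p: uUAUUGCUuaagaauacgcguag (chr3:118433901-118433923, plus strand, exon of Gm26871)
miR-29a-3p: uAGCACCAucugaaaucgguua (chr6:31062673-31062694, minus strand)

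The last 5 are a pair with one seed and very different changes, the most abundant neuronal miRNA and the paired miR-7 sequences of the hypothalamus.
miR-181c-5p: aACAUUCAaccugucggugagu (chr8:84178924-84178945, minus strand, intron of Nanos3)
miR-181a-5p: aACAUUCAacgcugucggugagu (chr1:137966468-137966490, plus strand, intron of Gm4258)
miR-9-5p: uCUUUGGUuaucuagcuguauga (chr13:83738821-83738843, plus strand, exon of the lincRNA C130071C03Rik)
miR-7a-5p: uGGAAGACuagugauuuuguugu (chr13:58392841-58392863, minus strand, intron of Hnrnpk)
miR-7b-5p: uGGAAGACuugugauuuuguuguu (chr17:56243017-56243040, plus strand)

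Input totals ran from 152980 to 5562423 counts (median 1236469) and IP totals from 67790 to 229582 (median 208775). Levels are given as counts per 1000000 counts of a library (CPM). The 17 neuronal miRNAs listed made up 6.44% to 25.6% of the counts in the inputs, with a mean of 1.06% in brown fat inputs and less in liver and muscle, as the tissue label has it. Input 4, the shallowest input, stood apart: 11 striated muscle miRNAs took 18.9% of its counts, against 0.155% to 0.259% in the other inputs and 0.322% in IP 4 of the same mouse. Mouse 9 also stood apart, since 14 neuroendocrine and pituitary miRNAs took 44.3% of input 5 and 41% of IP 5. Results that rest on input 4 or on mouse 9 are given with and without them.

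**Figure D1:**
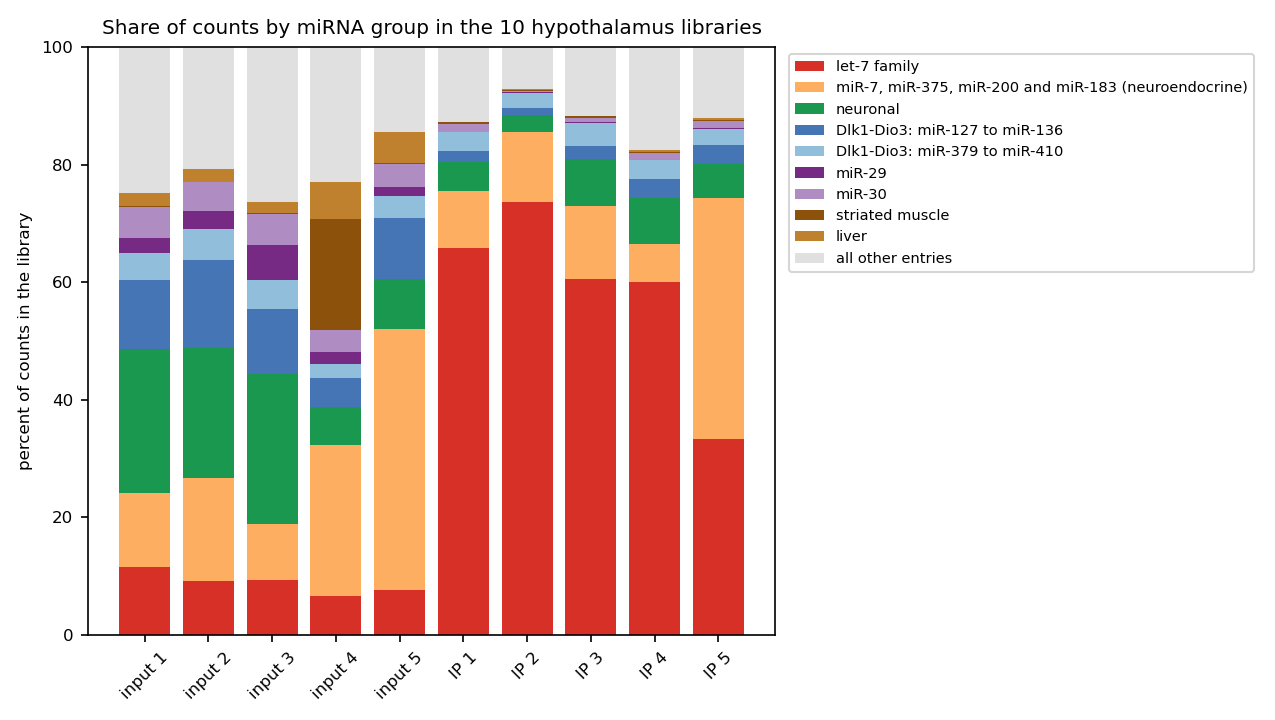
Each bar is one hypothalamus library and shows the percent of its counts in each miRNA group. let-7 takes 6.6% to 11.5% of each input and 33.3% to 73.7% of each IP, striated muscle miRNAs stand out in input 4 and neuroendocrine miRNAs in input 5 and IP 5.

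The pull-down changed most of the miRNAs that could be tested. Of 273 entries with enough counts, 77 were higher in the IP (28.2%), 129 were lower (47.3%) and 206 passed the test in either direction (75.5%), by edgeR's quasi-likelihood test at an adjusted p under 0.05. The median log2 fold change over all tested entries was -1.04. Fold changes are on the TMM scale, which assumes that most entries do not change, and this lifts them by 0.80 in the median against scaling by total counts. With total counts, 53 entries were higher and 153 lower, so that the share of higher calls was 25.7% in place of 37.4%. The 5 IP values lay wholly above the 5 input values for 44 entries and wholly below for 123, which is 61.2% of those tested. The labels name separate mice but only 1 library of each kind per mouse, and bulk RNA does not show which cells the captured RNA came from. In levels compared between mice or tissues, fewer cells of a type and less RNA per cell cannot be told apart.

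**Figure D2:**
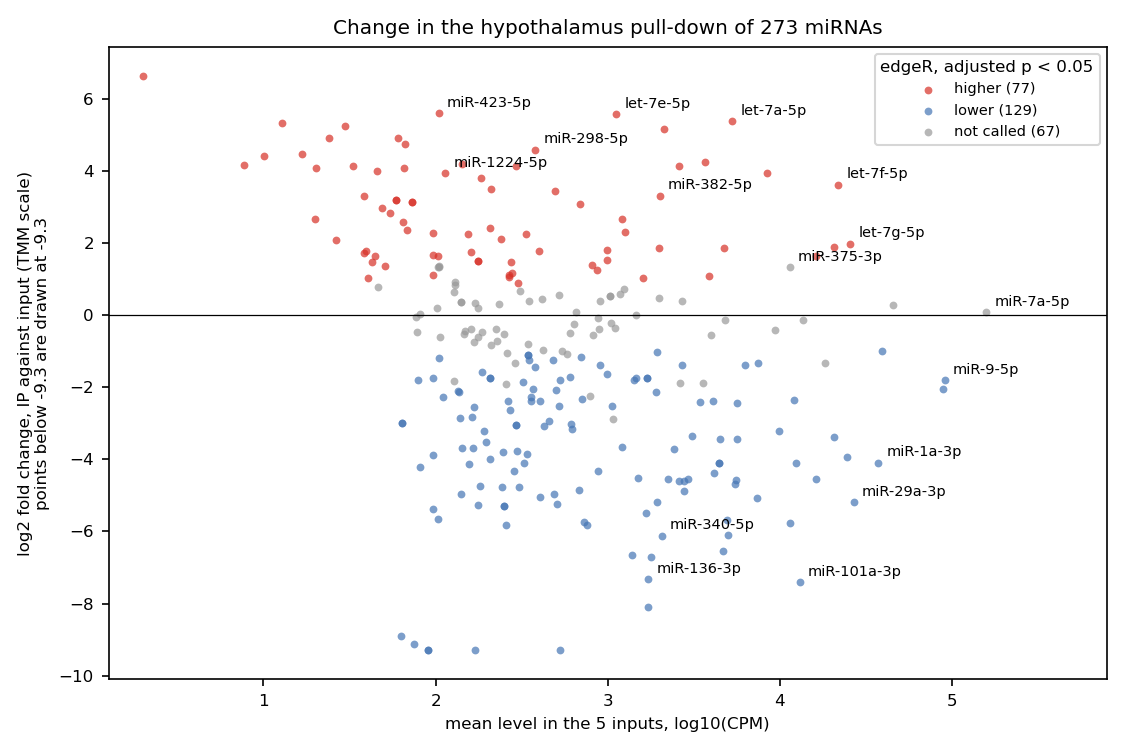
Each point is one of 273 miRNA entries, with the mean input level in CPM on a log10 axis and the log2 fold change of IP against input on the TMM scale. All let-7 members rose, with let-7a-5p and let-7e-5p near the top and let-7g-5p, more abundant in the input, lower. miR-101a-3p and miR-29a-3p, both abundant in the input, lie near the bottom.

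The let-7 family, which restrains growth and the timing of differentiation, dominated the pull-down. Its 9 measured members made up 8.89% ± 1.86 (SD, n = 5) of input counts and 58.7% ± 15.2 (SD, n = 5) of IP counts. All 9 passed the test as higher, against 28.2% of all entries, with a median log2 fold change of 3.94, and all 9 passed under each of the 3 scalings tried. The share was lowest in IP 5, at 33.3%, and highest in IP 2, at 73.7%.

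let-7a-5p was at 6800, 3641, 7003, 4131 and 4845 CPM in inputs 1 to 5, and at 166400, 183000, 99630, 140500 and 68530 CPM in IPs 1 to 5. Every IP was above every input, and the log2 fold change was 5.39 ± 0.47 (SE; adjusted p = 1.65e-06). let-7e-5p was at 1283, 883.8, 1720, 784.4 and 923.9 CPM in the inputs and at 25110, 46130, 14530, 70760 and 12200 CPM in the IPs. Its groups were also wholly separate, with IP 4 the highest, and its log2 fold change of 5.58 ± 0.52 was the largest of the family (adjusted p = 2.53e-06). let-7d-5p followed at 5.17, let-7b-5p at 4.15, let-7c-5p at 3.94 and let-7f-5p at 3.63.

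The smallest increases in the family were those of let-7i-5p and let-7g-5p. let-7g-5p was at 35270, 29700, 24090, 18380 and 20460 CPM in the inputs and at 64570, 59250, 101600, 36450 and 34490 CPM in the IPs. The groups overlapped, since IP 5 was below input 1, and the log2 fold change was 1.99 ± 0.40 (adjusted p = 0.000693). let-7i-5p was close to it at 1.89 (adjusted p = 0.000746), and miR-98-5p was at 2.69. Against let-7a-5p, with positions counted from 1 at the 5′ end, let-7e-5p carries U9G, let-7f-5p carries G12A, let-7c-5p carries A19G and let-7b-5p carries A17G and A19G. let-7g-5p carries G12U and U18C, let-7i-5p G12U, A17G, U18C and A19U, let-7d-5p U1A and U16C, and miR-98-5p G11A and A19U. In the inputs let-7g-5p averaged 25580 CPM, let-7i-5p 20720 CPM and let-7e-5p 1119 CPM, but miR-98-5p, at 725.6 to 1723 CPM, also rose less than let-7f-5p, at 17880 to 28900 CPM. Several members differ by a single base, and how the authors' counting treated reads that match more than one entry is not given in the sources used here. Of the 12 listed passenger strands 4 were tested, and 2 passed as higher, where 28.2% of all entries did. They were let-7b-3p (4.13) and let-7d-3p (2.11). let-7a-1-3p, which shares its reads with let-7c-2-3p, was at 0.92 with an adjusted p of 0.0623. Of the 12, 3 had no count in any IP.

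Outside let-7, the largest increases were mostly in miRNAs that were scarce in the input. miR-423-5p, from an intron of the splicing factor gene Nsrp1, was at 121.4, 107, 88.15, 117.7 and 86.29 CPM in the inputs and at 4952, 2091, 899.6, 6609 and 2232 CPM in the IPs. The groups were wholly separate, and its log2 fold change of 5.62 ± 0.56 (adjusted p = 3.83e-06) was close to that of let-7e-5p. The other strand of its hairpin, miR-423-3p, had a log2 fold change of 0.30 and did not pass (adjusted p = 0.612). miR-664-5p (5.33), miR-92b-5p (5.27), miR-342-5p (4.93), miR-323-5p (4.91), miR-501-3p (4.75), miR-298-5p (4.60), miR-3475-3p (4.49) and miR-125a-5p (4.25) followed. All of these had every IP above every input. Any of them too scarce in the inputs to enter the test there entered through its IP counts, which fixed its direction in advance. This did not apply to miR-423-5p, miR-298-5p or miR-125a-5p, whose input levels were high enough.

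miR-298-5p comes from the imprinted Gnas-Nespas region and was at 432.7, 561, 550.8, 163.4 and 186.8 CPM in the inputs. In the IPs it was at 7191, 3475, 5143, 6830 and 3080 CPM, so the lowest IP was well above the highest input. miR-125a-5p, which lies beside let-7e in Spaca6, rose from 3687 CPM in the mean of the inputs to 41100 CPM in the mean of the IPs. miR-342-3p, the other strand of the miR-342 hairpin, was at 0.34 and did not pass (adjusted p = 0.569).

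miR-5126 is named here because it has no U, and was picked after its values were seen. Its 22 bases are 17 G and 5 C. It was at 0.754, 5.85, 1.62, 0 and 1.8 CPM in the inputs and at 47.9, 89.6, 74.2, 590.1 and 76.6 CPM in the IPs. These values rest on 20 counts in all inputs and 92 in all IPs, with IP 4 the highest. Its log2 fold change was 6.65 ± 0.76 (adjusted p = 9.33e-06). With input levels this low it could enter the test only through the IPs, so the direction of its change was fixed in advance. Its size and p-value therefore cannot be read as a result.

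**Figure D3:**
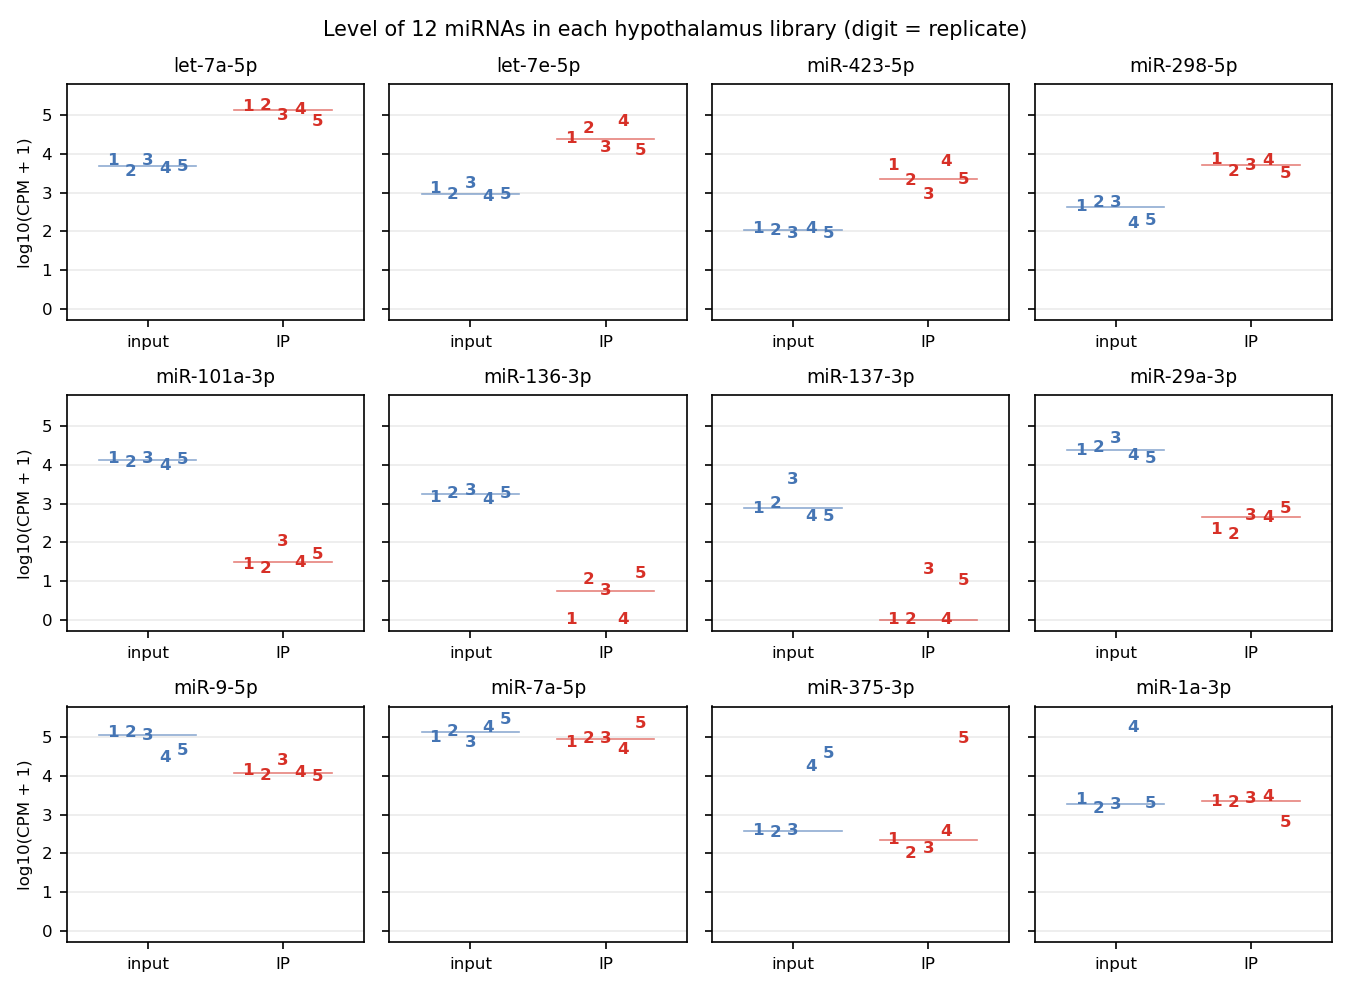
Levels of 12 miRNAs as log10(CPM + 1), with each digit giving the replicate and each line the median of the 5 libraries. The top row rose in the IP with no overlap between groups, the middle row fell with no overlap, and in the bottom row miR-375-3p and miR-1a-3p turn on input 4, input 5 or IP 5.

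Several abundant miRNAs nearly vanished from the pull-down. Those named here averaged 100 CPM or more over the 10 libraries, and some scarcer miRNAs with no count in any IP had larger fitted decreases. miR-101a-3p, which targets the histone methyltransferase Ezh2, was at 15190, 11910, 14890, 9563 and 13600 CPM in the inputs and at 26.1, 19.9, 102, 29.5 and 47.9 CPM in the IPs. The groups were more than an order of magnitude apart, and the log2 fold change was -7.40 ± 0.55 (adjusted p = 6.44e-07). miR-136-3p, from the imprinted Dlk1-Dio3 region, was at 1464, 1842, 2146, 1281 and 1819 CPM in the inputs and at 0, 9.96, 4.64, 0 and 14.4 CPM in the IPs. Its log2 fold change was -7.33 (adjusted p = 2.25e-06), and its reads are shared with the entry miR-3071-5p. miR-137-3p (-6.64), miR-381-3p (-6.54), miR-340-5p (-6.12), miR-30e-5p (-6.09), miR-181c-5p (-5.83), miR-140-5p (-5.82), miR-21a-5p (-5.76), miR-29c-3p (-5.73) and miR-101b-3p (-5.67) fell with every IP below every input. miR-133a-3p (-6.71) lay in the same range with overlapping groups and is given with the muscle miRNAs.

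miR-153-3p, a neuronal miRNA of synaptic genes, had 3935 counts over the inputs and 0 over the IPs. Taking 3 counts over the IPs as the floor, it was at least 68.8-fold lower on the TMM scale and at least 114-fold lower by total counts. miR-140-5p had 2102 counts over the inputs and 2 over the IPs, a ratio of 55.1 on the TMM scale with a 95% counting interval of 15.2 to 455. Intervals and floors cover counting error only, since no molecular identifiers are described. At the median IP total of 208775 counts, 1 count is a few CPM, so differences among the lowest IP values were not detectable at this depth.

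Of 14 tested neuronal miRNAs, 9 passed as lower (7 without mouse 9) and 1 as higher, where 47.3% of all entries were lower and 28.2% higher. The median log2 fold change was -1.54 against -1.04 over all entries. miR-9-5p, which controls neural progenitors and stays high in neurons, was at 132100, 132900, 113000, 29950 and 45340 CPM in the inputs. In the IPs it was at 13620, 10100, 25110, 12290 and 10020 CPM, all below the lowest input, with a log2 fold change of -1.79 ± 0.39 (adjusted p = 0.00131). Inputs 4 and 5 were the low ones, and they were also the libraries with much muscle or neuroendocrine miRNA. The part of those other miRNAs in the level of miR-9-5p was not tested.

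miR-124-3p, the most widely used neuronal marker, was at 4739, 5069, 14380, 2471 and 1534 CPM in the inputs and at 383.3, 149.4, 1229, 604.8 and 469.4 CPM in the IPs. It fell by 2.44 on the log2 scale (adjusted p = 0.00167), and input 3 and IP 3 were the highest of their groups. miR-128-3p had a log2 fold change of -0.99 (adjusted p = 0.0214), and with the mouse as a block the value was -0.99 with an adjusted p of 0.0566. The call was also lost without IP 4 (adjusted p = 0.0551), without mouse 9 (0.0589) and with a minimum mean of 10 CPM (0.101), although every IP was below every input. miR-125b-5p, expressed in neurons and glia, was the one neuronal entry that passed as higher (1.66, adjusted p = 0.00217). By total counts it was at 0.82 and did not pass (adjusted p = 0.155).

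Among 10 tested miRNAs of synapses and neuronal activity, 2 passed as higher and 4 as lower, near the shares over all entries (28.2% and 47.3%). miR-485-5p, which acts on presynaptic Sv2a, was at 662.6, 697.3, 550.8, 176.5 and 366 CPM in the inputs and at 3938, 2649, 2583, 4661 and 1763 CPM in the IPs. The groups were wholly separate and the log2 fold change was 3.46 ± 0.34 (adjusted p = 3.32e-06). miR-181a-5p and miR-181c-5p share the seed ACAUUCA. miR-181c-5p was at 423.7, 814.4, 1769, 418.4 and 352.7 CPM in the inputs and at 0, 0, 13.9, 0 and 14.4 CPM in the IPs. miR-181a-5p fell far less, from a mean of 6309 CPM to 1368 CPM, with a log2 fold change of -1.37 (adjusted p = 0.00912). miR-181b-5p, with the same seed, was at 0.74 and did not pass (adjusted p = 0.0951). By total counts the value of miR-181b-5p was -0.15.

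The miR-7 family, an abundant class in hypothalamic neurons and pituitary cells, was abundant in both kinds of library. miR-7a-5p was at 102000, 141200, 75610, 177800 and 293300 CPM in the inputs and at 75190, 92600, 94310, 49200 and 224100 CPM in the IPs. The groups overlapped and mouse 9 was highest in both. The log2 fold change was 0.10 ± 0.63 (adjusted p = 0.892), and -0.57 by total counts (adjusted p = 0.29). miR-7b-5p was at 23400, 32380, 18440, 54730 and 96620 CPM in the inputs and at 21090, 26000, 30540, 15640 and 85380 CPM in the IPs, with a log2 fold change of 0.28 ± 0.72 (adjusted p = 0.728). With standard errors of this size, a 2-fold change in either direction lies within 2 standard errors of both values. The passenger strand miR-7a-2-3p passed as higher at 1.49 on the TMM scale, and not by total counts (0.75, adjusted p = 0.154). Its call was also lost with no filter (adjusted p = 0.247), without any one of inputs 1 to 3 (0.0802, 0.0609 and 0.0724), without IP 5 (0.0844) and without mouse 8 (0.0586).

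miR-375-3p, a miRNA of endocrine cells that is high in pituitary and pancreatic islets, could not be read without its libraries. It was at 388.2, 349.5, 383.3, 17740 and 38130 CPM in the inputs and at 226.5, 99.6, 129.8, 368.8 and 96630 CPM in the IPs. Mouse 9 was high in both libraries and mouse 8 in its input only. The log2 fold change was 1.33 (adjusted p = 0.554), -5.74 without IP 5 (adjusted p = 0.0108) and -4.07 without mouse 9 (adjusted p = 0.0278). miR-200a-3p, an epithelial and pituitary miRNA, followed the same libraries: it was at 184.7, 59.4, 154.5, 3759 and 7074 CPM in the inputs, at 311.3 CPM in IP 5 and at 0 in the other IPs. Its log2 fold change of -4.56 had an adjusted p of 0.0397, which rose above 0.05 without any one of IPs 1 to 4, without input 5 or without mouse 8. Of the 14 neuroendocrine miRNAs, 7 were tested, 1 passed as higher and 1 as lower, against 28.2% and 47.3% of all entries. Without mouse 9, 4 were tested, 0 passed as higher and 2 as lower, with a median log2 fold change of -1.82 against 0.096 with all libraries. Without mouse 8, 10 were tested and 0 passed in either direction, where 90 of 380 entries passed as higher and 170 as lower. Whether pituitary tissue was part of the mouse 9 sample was not tested.

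The strands of the oligodendrocyte miRNA miR-338 and the choroid plexus and ependymal miRNAs split in direction, and the tested miR-219 entries passed in neither. Both miR-338 entries share their reads with miR-3065-5p or miR-3065-3p, so their values cannot be assigned to miR-338 alone. miR-338-3p, a driver of oligodendrocyte maturation, fell by 3.06 on the log2 scale (adjusted p = 0.00436), while miR-338-5p was at 1.51 on the TMM scale (adjusted p = 0.00354) and at 0.64 by total counts (adjusted p = 0.254). miR-219a-2-3p shares its reads with miR-219b-5p. Its log2 fold change was 0.53 (adjusted p = 0.251). miR-34c-5p, from the multiciliated ependyma and choroid plexus, was at 6359, 7035, 6711, 2667 and 4489 CPM in the inputs and at 82.8, 69.7, 241.1, 103.3 and 105.4 CPM in the IPs. It fell by 4.69 on the log2 scale (adjusted p = 1.4e-06) and miR-34b-5p fell by 5.05. miR-204-3p rose by 4.08 (adjusted p = 1.4e-06). The other strand, miR-204-5p, passed on the TMM scale (1.26, adjusted p = 0.00296) and not by total counts (0.49, adjusted p = 0.313).

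Of the miRNAs listed as restricted to the hypothalamus among these tissues, miR-760-3p and miR-1224-5p rose and miR-873a-5p fell. miR-760-3p was at 389, 450.7, 368.8, 111.1 and 140.2 CPM in the inputs and at 2509, 3316, 2717, 5325 and 1207 CPM in the IPs, with no overlap and a log2 fold change of 4.15 ± 0.39 (adjusted p = 2.57e-06). miR-1224-5p rose by 3.96 (adjusted p = 1.58e-05). miR-873a-5p, which fell by 1.73 (adjusted p = 0.0028), was below 100 CPM in every IP.

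The imprinted Dlk1-Dio3 region on chromosome 12 holds 2 large miRNA clusters that are expressed from the maternal allele and are high in brain. In the cluster from miR-127 to miR-136 4 of 12 tested entries passed as higher and 6 as lower, and in the cluster from miR-379 to miR-410 8 of 32 passed as higher and 17 as lower. Both are near the shares over all entries, 28.2% higher and 47.3% lower. By total counts the numbers were 2 and 7, and 4 and 21. miR-127-3p, the most abundant of them, was at 97730, 127200, 87530, 39660 and 88620 CPM in the inputs and at 8855, 3475, 10320, 17820 and 22160 CPM in the IPs. It fell by 2.04 on the log2 scale (adjusted p = 0.00178). miR-382-5p, transcribed in the same cluster as miR-381-3p, was at 2515, 3003, 2380, 777.9 and 1347 CPM in the inputs and at 13800, 10880, 15770, 8231 and 5997 CPM in the IPs. It rose by 3.32 (adjusted p = 1.21e-05) while miR-381-3p fell by 6.54 and miR-300-3p by 5.06. miR-541-5p (1.88) and miR-433-3p (1.86) rose, and miR-134-5p, which limits dendritic spine size, was at -0.36 and did not pass (adjusted p = 0.311). It passed as lower by total counts (-1.09, adjusted p = 0.0339) and with DESeq2 (-0.52, adjusted p = 0.037).

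The miR-29 family, which targets collagens and DNA methyltransferases, fell as a whole: 3 of 3 tested members passed as lower, against 47.3% of all entries. miR-29a-3p was at 23890, 28350, 49420, 17810 and 14710 CPM in the inputs and at 213.4, 159.3, 510.1, 442.5 and 737.6 CPM in the IPs. It fell by 5.18 (adjusted p = 3.83e-06), miR-29c-3p by 5.73 and miR-29b-3p by 4.86. The 3 tested members of the miR-15/16 family, which restrain the cell cycle, also passed as lower, with miR-16-5p at -4.96 (adjusted p = 2.46e-05). All 4 endothelial miR-126 entries passed as lower; they come from 2 sets of shared reads, and miR-126a-3p fell by 4.11 (adjusted p = 1.75e-05).

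The miR-30 family did not move as one. miR-30a-5p fell by 4.54, miR-30b-5p by 4.78, miR-30c-5p by 3.21 and miR-30e-5p by 6.09. miR-30d-5p was at 16050, 16020, 14300, 9844 and 12210 CPM in the inputs and at 11630, 796.6, 4906, 9131 and 11010 CPM in the IPs. The groups overlapped, IP 2 was the lowest, and the log2 fold change was -0.12 ± 0.55 (adjusted p = 0.852). In the miR-125 and miR-99/100 families 4 of 9 passed as higher and 2 as lower, against 28.2% and 47.3% of all entries. miR-99a-5p, processed from one transcript with let-7c and miR-125b-2, fell by 2.34 (adjusted p = 0.000168) and miR-100-5p was at -0.41 (adjusted p = 0.305) and passed as lower by total counts (-1.22, adjusted p = 0.0332).

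Both strands of one hairpin could be tested for 50 hairpins, and they passed in opposite directions for 7 and in the same direction for 27. In all 7 the strand with fewer input counts was the higher one. Over all 50 hairpins that strand had the higher log2 fold change in 30. Input counts are also the base of the fold change. A strand scarce in the inputs could be tested only if its IP counts were high, so these numbers are not a result about strands. miR-137-3p, a neuronal miRNA linked to synapse maturation, was at 767.4, 1006, 4239, 470.6 and 468.3 CPM in the inputs and at 0, 0, 18.6, 0 and 9.58 CPM in the IPs. Its passenger miR-137-5p was at 12.1, 10.9, 9.71, 13.1 and 4.49 CPM in the inputs and at 113.2, 159.3, 129.8, 103.3 and 52.7 CPM in the IPs. It rose by 4.42 (adjusted p = 3.83e-06) where the main strand fell by 6.64, but it could enter the test only through its IP counts. miR-30b-3p rose by 2.08 in the same way, against the decrease of miR-30b-5p. Of the 7, miR-338 and miR-3065 share their reads, since they lie on opposite strands of one site, and the strand setting of the counting is not given in the sources used here.

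miRNAs of other tissues were lower or depended on input 4. miR-1a-3p, which dominates in skeletal and heart muscle, was at 2475, 1468, 1842, 179100 and 1949 CPM in the inputs and at 2221, 2071, 2657, 3009 and 632.3 CPM in the IPs. With all libraries its log2 fold change was -4.09 (adjusted p = 0.0276), and without input 4 it was 0.82 (adjusted p = 0.0861). With the mouse as a block it was 0.07 (adjusted p = 0.951). miR-133a-3p, the partner of miR-1 in muscle, went from -6.71 (adjusted p = 0.0086) to -1.46 (adjusted p = 0.0793) without input 4, and miR-206-3p from -1.04 (adjusted p = 0.517) to 3.31 (adjusted p = 0.000443). miR-206-3p is specific to skeletal muscle. In inputs other than input 4 it was at 20.4 CPM or lower. In IPs 1 to 4 it was at 78.8 to 206.5 CPM, with IP 5 at 4.79 CPM. Without input 4 it could thus enter the test only through the IPs, which fixed the direction of its change.

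miR-122-5p, the dominant miRNA of hepatocytes, was at 200.5, 102.8, 112.4, 17090 and 323.1 CPM in the inputs and at 696.9, 1255, 644.6, 1873 and 335.3 CPM in the IPs. Without input 4 every IP was above every input, and the log2 fold change was 2.86 (adjusted p = 0.000849), against -1.88 (adjusted p = 0.246) with it. With the mouse as a block it was 2.17 (adjusted p = 0.0446). miR-192-5p, another liver miRNA, fell with all libraries (-5.48, adjusted p = 0.000473) and without input 4 (-3.89, adjusted p = 0.000101). Its level in input 4 was 5249 CPM against at most 865.4 CPM in the other inputs. In the liver IPs, made in the same pool, the listed liver miRNAs were 77.8% ± 3.01 (SD, n = 5) of counts, and the part of other libraries of the pool in these values was not tested.

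The 5 tested miRNAs of the brown fat list passed as lower with all libraries, against 47.3% of all entries. Without input 4, 4 of 5 passed as lower, where 131 of 288 entries did. miR-30b-5p and miR-30c-5p in this list are the miR-30 members given above. miR-378a-3p, which lies in the Ppargc1b gene of mitochondrial tissues, was at 2086, 1392, 1452, 11240 and 1038 CPM in the inputs and at 570.6, 288.8, 644.6, 1047 and 253.9 CPM in the IPs. Its log2 fold change was -2.41 (adjusted p = 0.017) and -0.70 without input 4 (adjusted p = 0.123). miR-203-3p fell by 2.39 (adjusted p = 0.00491). miR-193a-3p, miR-193b-3p and miR-365-3p were in the list and had too few counts in the hypothalamus to be tested. The list as a whole was 1.41% ± 0.448 (SD, n = 5) of input counts and 0.132% ± 0.0583 (SD, n = 5) of IP counts. Most of this in the inputs was miR-30c-5p, which alone averaged 0.982% of input and 0.0642% of IP counts. In brown fat itself the list was 14.4% ± 1.67 of input and 13.3% ± 3.48 of IP counts (SD, n = 5 each).

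Blood and immune miRNAs gave a further split. All 4 red blood cell entries that could be tested were miR-486 entries, which share reads. The other 3 of the 7 listed, miR-451a and both strands of miR-144, had counts in the inputs and none in any IP. All 4 miR-486 entries passed as higher, against 28.2% of all entries, and miR-486a-5p rose by 3.22 (adjusted p = 0.000212). The whole list was 0.0125% to 0.051% of counts in the inputs, so these 4 could not all enter the test on input counts alone. Entry through the IPs favours a higher call, so their number and p-values cannot be read as a result. Of 8 leukocyte and microglia miRNAs 3 were tested, with 2 higher and 1 lower, against 28.2% and 47.3% of all entries. The miR-142a, miR-223 and miR-155 entries were not tested, and 3 of them had counts in the inputs and none in any IP. That list averaged 1.19% of input and 0.132% of IP counts, and miR-21a-5p alone averaged 1.14% of input counts. miR-146a-5p, a brake on inflammatory signalling, rose by 2.25 (adjusted p = 0.00287) and miR-150-5p of lymphocytes was at 1.65 on the TMM scale (adjusted p = 0.0117) and at 0.99 by total counts (adjusted p = 0.155). miR-21a-5p was at 11750, 7815, 11200, 17450 and 8978 CPM in the inputs and at 104.5, 59.7, 292.2, 59 and 158.1 CPM in the IPs.

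Leaving out input 4 changed few other calls. Of the 273 entries tested in both fits, 196 kept their call as higher or lower, 10 lost it, 2 gained one and 0 reversed from one call to the other. With 288 entries tested, 80 were higher and 131 lower. The gains were miR-122-5p and miR-206-3p, and the losses included miR-1a-3p, miR-133a-3p, miR-378a-3p and miR-10a-5p.

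**Figure D4:**
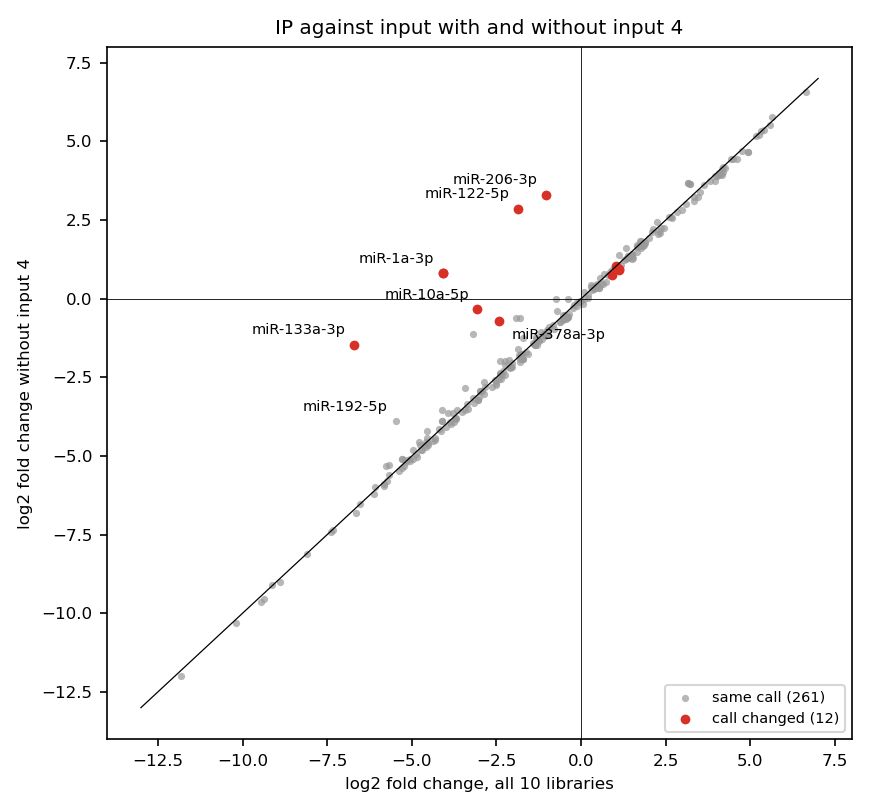
Each point is one of 273 miRNA entries, with the log2 fold change of IP against input from all 10 libraries on the x axis and without input 4 on the y axis, and the line marks equal values. The 12 entries whose call changed are coloured, and those far above the line are muscle and liver miRNAs, miR-378a-3p and miR-10a-5p.

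The mature sequence was matched for 238 of the 273 tested entries (87.2%). Each thiol that can be biotinylated sits on a U. The median number of U was 6 among miRNAs that rose, 6 among those that fell and 6 among those not called. Across the 238 miRNAs, which share the same 10 libraries, the rank correlation of the number of U with the log2 fold change was -0.04, and between -0.10 and -0.0015 in single mice. let-7a-5p and miR-7a-5p, with 9 and 10 U, had log2 fold changes of 5.39 and 0.10, and miR-9-5p with 11 U had -1.79.

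Other bases differed more. miRNAs that rose had a median of 4 A and 7 G, those that fell 6 A and 5 G, and those not called 5 A and 5 G. The rank correlation with the log2 fold change was -0.44 for the number of A and 0.35 for the number of G, and 0.44 for the percent of G and C. Of the 238, 64 passed as higher and 117 as lower. Of 18 miRNAs with 10 or more G, 14 passed as higher and 0 as lower, and their median log2 fold change was 4.02. Of 49 with 7 or 8 A, 3 passed as higher and 38 as lower. miR-1224-5p with 13 G and miR-340-5p with 9 A are named examples, at 3.96 and -6.12. These are descriptions across miRNAs, which are not independent replicates. miR-5126, with 17 G, is among the 18. It and other matched entries scarce in the inputs, such as miR-137-5p, could enter the test only through their IP counts. The direction of such entries was fixed in advance, and their part in the values for U, A and G was not tested.

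**Figure D5:**
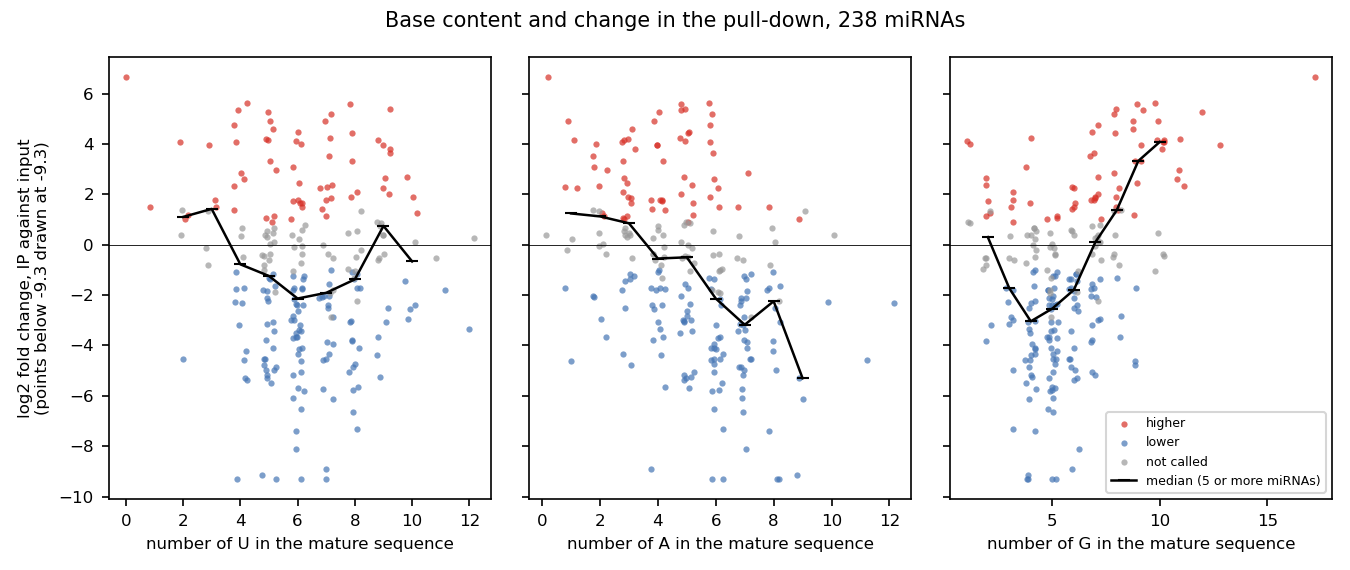
Each point is one of 238 miRNAs with a matched sequence, placed by its number of U, A or G (spread sideways for view) and its log2 fold change, and the black line joins the medians of counts held by 5 or more miRNAs. The line has no steady slope over U, falls over A, and rises over G from 4 upward.

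To ask whether the hypothalamus pull-down differed from those of the other tissues, the change of each miRNA was compared with the mean of its changes in brown fat, liver and muscle. Of 451 entries tested over all 40 libraries, 18 had a higher change in the hypothalamus (3.99%) and 21 a lower one (4.66%), which is 8.65% in all. These numbers were not stable: they were 92 and 3 without input 4, 11 and 53 without input 3, 8 and 41 without input 2, and 115 and 4 with a minimum mean of 10 CPM. With the mouse as a block they were 10 and 14. miR-7b-5p changed by 0.34 in the hypothalamus and by -4.12 in brown fat, -2.60 in liver and -3.77 in muscle, a difference of 3.84 ± 0.58 (adjusted p = 9.28e-06). It averaged 1103 CPM in the brown fat inputs and 30.6 CPM in the brown fat IPs. The difference passed under each alternative tried, with values from 3.17 to 4.95. miR-298-5p differed by 3.70 ± 0.51 (adjusted p = 2.53e-06; 3.19 to 4.79 under the alternatives). Its level outside the hypothalamus rests on 30 counts in brown fat inputs, 13 in liver inputs and 39 in muscle inputs. miR-219a-2-3p differed by 4.35 (adjusted p = 0.00758), with 52 counts in brown fat inputs and 0 in brown fat IPs.

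Several other differences turned on single libraries. The lower values of miR-1a-3p (-5.02), miR-122-5p (-4.76) and miR-206-3p (-3.79) became 0.43, 0.57 and 1.15 without input 4, and none of these passed. With the mouse as a block they were -1.23, -1.08 and -1.09 and did not pass either (adjusted p = 0.458, 0.507 and 0.424). The value of miR-375-3p was 4.73 (adjusted p = 0.0285) and -1.90 without IP 5 (adjusted p = 0.249). miR-335-5p, from the imprinted Mest gene, differed by 4.02 (adjusted p = 0.0462), and this call was lost without any one of inputs 1 to 3, IP 3 or IP 5 and with the mouse as a block (3.27, adjusted p = 0.117).

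Against brown fat alone, 145 of 422 entries differed in their change (34.4%), with 9 lower in the hypothalamus (2.13%) and the rest, 32.2%, higher. This split differed widely between settings: it was 36 higher and 23 lower with RLE factors, 13 and 29 with total counts, and 2 and 172 with shared entries counted once. Without input 3 it was 132 and 11, and without any other single hypothalamus library it was 1 to 5 higher and 151 to 191 lower. The median difference over all entries moved with it, from 1.30 with all libraries to 1.38 without input 3, between -1.94 and -1.56 without any other single library, and -1.77 with shared entries once. miR-7b-5p had a higher change in the hypothalamus under each alternative (6.19, adjusted p = 1.47e-05; lowest value 2.28). miR-101a-3p (-1.56, adjusted p = 0.0296) and miR-101b-3p (-1.90, adjusted p = 0.022) had a lower one under each. The values of miR-1224-5p (7.28) and miR-124-3p (5.96) rest on 4 and 160 counts in brown fat inputs and 0 in brown fat IPs, and their adjusted p reached 0.169 and 0.307 under the alternatives. miR-219a-2-3p, at 7.33 against brown fat, lost its call without any one of inputs 2, 4 and 5 or IPs 1, 3 and 5 (4.60 to 5.17, adjusted p up to 0.0824).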

How the data were processed

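Small RNA libraries of the hypothalamus (5 input, 5 IP) were analysed, with the 30 libraries of the other tissues for comparison. The authors deposited expected counts, which are estimated and need not be whole, for 1894 mature miRNA entries; among values above 0, 18.9% were whole to within 0.001. Per the submitters' processing notes fastp, STAR and featureCounts were used with mm10; versions, annotation, strand and the treatment of shared reads are not stated in the sources at hand. Counts were rounded, moving no library total by more than 0.13%. edgeR 4.0.16 (R 4.3.3) was used with filterByExpr, TMM factors and the quasi-likelihood test, two-sided, with Benjamini-Hochberg adjustment over all entries tested (adjusted p under 0.05). Interactions were fitted in the same way over 20 or 40 libraries. Alternatives were RLE factors, total counts, no filter, a mean of at least 10 CPM, DESeq2 1.42.0, the mouse as a block, all 40 libraries, unrounded counts, each library left out and mouse 8 left out. Leaving out mouse 9 and counting shared entries once were added after seeing the data. Hypothalamus input and IP came from the same mice by the labels (in brown fat, input 5 came from mouse 8 and IP 5 from mouse 10); the deviations of the paired libraries correlated at -0.02 to 0.61 (median 0.30), above 0.1 in 3 of 5 pairs. Named miRNAs were the 12 largest changes in each direction that averaged 100 CPM or more, the 6 largest in each direction of each interaction, and the 4 most abundant of each list; other strands of their hairpins, further members of let-7 and miR-181, miR-7a-2-3p, miR-10a-5p and miR-5126 were chosen after their values were seen. The members, lists and tests were chosen with earlier results of these data known. Simulated counts were fitted for the IP against input comparison (312 entries). There 97.6% of 4-fold and 31.7% of 2-fold changes were recovered and 5.26% of calls were false. Against brown fat the values were 67.3%, 11.8% and 6.82%, and against the other tissues 84%, 22.4% and 3.64%. The simulation gave input and IP a common profile and a fixed spread, with changes drawn evenly in both directions. In the data 75.5% of entries passed and more fell than rose, so these rates need not carry over.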

Additional observations from a re-analysis of the deposited data

Results flagged for a closer look

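In 236 groups of 5 libraries (named miRNAs and lists, inputs and IPs apart), the highest library was far from the other 4 in 31 (13.1%). The cutoff used flags about 1 in 20 groups only if the values are normally distributed and the groups independent. CPM values need not be normal, the groups share the same libraries, and the lists hold named miRNAs. Whether 31 groups are more than chance gives therefore cannot be read from this rate. Input 3 was the far library in 10, input 4 in 7, IP 3 in 7, IP 5 in 6 and IP 4 in 1.

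Input 3 was highest, in CPM, for miR-124-3p (14380), miR-137-3p (4239), miR-153-3p (1592), miR-195a-5p (159.3), miR-29b-3p (8762), miR-29c-3p (2085), miR-30e-5p (7637), miR-338-3p (878.3) and miR-342-3p (370.4), and for the share of the miR-15/16 list (0.141% of counts). The next input was at 1006 CPM for miR-137-3p and at 1694 CPM for miR-29b-3p. IP 3, from the same mouse, was highest for miR-133a-3p (46.4), miR-140-5p (9.28), miR-30b-5p (27.8), miR-342-3p (320), miR-34c-5p (241.1), miR-873a-5p (69.6) and miR-9-5p (25110).

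Input 4 was highest for miR-122-5p (17090), miR-133a-3p (8648), miR-192-5p (5249), miR-1a-3p (179100), miR-206-3p (1229) and miR-378a-3p (11240), and for the share of the striated muscle list (18.9%). IP 4 was highest for miR-5126 (590.1), with 89.6 CPM in the next library.

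IP 5 was highest for miR-148a-3p (3487), miR-200a-3p (311.3), miR-375-3p (96630), miR-7a-5p (224100) and miR-7b-5p (85380), and for the share of the neuroendocrine list (41%). Input 5 of the same mouse was also the highest input for miR-148a-3p, at 47280 CPM, and for miR-200a-3p, miR-375-3p, miR-7a-5p and miR-7b-5p.

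The change in the pull-down differed from that in brown fat, by edgeR's interaction test, for miR-375-3p (7.46 on the log2 scale), miR-219a-2-3p (7.33), miR-1224-5p (7.28), miR-7b-5p (6.19), miR-124-3p (5.96), miR-101b-3p (-1.90), miR-30e-5p (-1.65), miR-101a-3p (-1.56), miR-30a-5p (-1.49) and miR-5099 (-1.44). Of these only miR-7b-5p, miR-101a-3p and miR-101b-3p kept their call under each alternative run: miR-375-3p, miR-1224-5p and miR-124-3p lost it by total counts and without most single libraries, miR-219a-2-3p without 6 of the 10 single libraries, and miR-30e-5p, miR-30a-5p and miR-5099 with the mouse as a block. It differed from the mean of the other tissues for miR-375-3p (4.73), miR-219a-2-3p (4.35), miR-335-5p (4.02), miR-7b-5p (3.84), miR-298-5p (3.70), miR-1a-3p (-5.02), miR-122-5p (-4.76) and miR-206-3p (-3.79).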

How the results depend on the processing

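Of 97 named miRNAs, 75 gained, lost or reversed no call for IP against input under any alternative run, as did 1945 of 2024 values. These include values of miRNAs called on neither side whose sign differed (35 values of 10 miRNAs, the interactions included, such as miR-7a-5p, miR-7b-5p and miR-30d-5p). The counts of 77 higher and 129 lower became 132 and 259 with no filter, 120 higher with a mean of at least 10 CPM, and 121 and 208 in a fit of all 40 libraries, where more entries were tested. With one library left out they ran from 72 to 87 and from 122 to 147, and with the replicate block (the mouse) they were 78 and 132. Against brown fat, 145 calls, 9 of them lower, became 36 higher and 23 lower with RLE factors, 13 and 29 with total counts and 2 and 172 with shared entries once, and ran from 1 to 132 and from 11 to 191 with one library left out. Against the mean of the other tissues, the counts of 18 and 21 became 115 and 4 with a mean of at least 10 CPM, 10 lower with total counts, 10 higher with the replicate block and 13 lower with shared entries once, and ran from 8 to 92 and from 3 to 53 with one library left out. The cause of these shifts was not tested.

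Reversed signs were those of miR-122-5p, miR-1a-3p and miR-206-3p without input 4 (2.86, 0.82 and 3.31, and 0.57, 0.43 and 1.15 against the other tissues, where leaving out other libraries gave values down to -5.55, -5.80 and -4.58) and without mouse 8 (2.64, 0.76 and 3.13), of miR-122-5p (2.17) and miR-1a-3p (0.068) with the replicate block, and of miR-375-3p without IP 5 (-5.74, -2.57 against brown fat, up to 7.06 without other libraries, and -1.90 against the other tissues) and without mouse 9 (-4.07). Among named miRNAs the block also ended the call of miR-128-3p (-0.99) and gave one to miR-143-3p (-1.53, from -1.33). It ended those of miR-30a-5p (-1.42, adjusted p = 0.0977), miR-30e-5p (-1.73, 0.0563) and miR-5099 (-1.13, 0.11) against brown fat, and of miR-122-5p (-1.08), miR-1a-3p (-1.23), miR-206-3p (-1.09) and miR-335-5p (3.27) against the other tissues. The rank correlations with base content kept their sign under each of the 3 alternatives tried. Depth in the IPs, down to 67790 counts, limits what the lowest values can show.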
